A study of Mus musculus with 12 samples.

Results

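The immunoglobulin heavy and light chain genes were followed across lung tissue of A/J mice on 12 Affymetrix MG_U74Av2 arrays. Members were taken by annotation alone: probe sets with a gene symbol that starts with Igh, Igk or Igl and names an immunoglobulin gene, plus Jchain. The rule found 38 immunoglobulin genes of the 8949 gene symbols on the array, measured by 80 of its 12422 probe sets (0.644%). They comprised 39 heavy chain, 36 kappa, 2 lambda and 2 surrogate light chain (Igll1) probe sets and 1 for the J chain. Of the 80, 68 carried 1 immunoglobulin symbol and 12 carried several, which were kept. 1 kappa probe set (101633_at) also named Asb2, a gene of another family. 41 had an array suffix (_f, _g, _s or _r) that marks probes shared with related sequences or otherwise not unique, so a symbol here stands for a family of similar transcripts as much as for 1 gene. The annotation names the gene and not the part of the transcript that the probes match. Isotype below therefore means the annotated constant region symbol, and a probe set designed on a rearranged antibody clone may also read its variable region. Among the constant regions, 16 probe sets named only Ighm, 7 only Ighg3, 3 only Igha, 1 only Ighd and 1 only the lambda gene Iglc1. No other heavy chain constant gene was among the members' symbols.

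The samples were lungs of age-matched A/J control mice, untreated apart from a saline injection, with 1 array each, per the labels. 7 were taken 42 weeks after the injection (LZ22 to LZ25 and LZ61 to LZ63) and 5 at 24 to 26 weeks (AJ1, AJ2, AJ4, LZ2 and LZ3). The labels do not give the animals' age or sex, do not explain the AJ and LZ titles, and do not say whether the samples are separate animals, so the p-values reflect only how much these samples vary, which may be technical. The run records placed AJ1 to AJ4, LZ2 and LZ3, LZ22 to LZ25, and LZ61 to LZ63 on 4 separate run days; since no run day held both time points, run day and time point cannot be told apart.

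An antibody joins heavy chains with kappa or lambda light chains, and the heavy chain's constant region sets its isotype. A B cell first makes IgM (Ighm) and IgD (Ighd) and can switch to IgG (such as Ighg3) or IgA (Igha), the main antibody of mucosal surfaces such as the airway lining. When a B cell becomes a plasma cell it makes very large amounts of immunoglobulin mRNA, while its membrane IgD is lost. The J chain (Jchain) links IgM and IgA into polymers that the receptor Pigr carries across epithelium. Each B cell clone uses 1 rearranged variable segment per chain, so the level of a variable segment reflects the clones present. Mouse antibodies use kappa far more than lambda.

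Of the members' 38 immunoglobulin symbols, 37 matched a RefSeq gene (GRCm38.p6), which places the heavy chain genes on chromosome 12, the kappa genes on chromosome 6, the lambda genes and Igll1 on chromosome 16 and Jchain on chromosome 5. Promoter sequence was held for 2 of the 38, Jchain and Igll1. That of Jchain is printed because its signal followed the antibody chains closely although it lies on another chromosome and does not rearrange. It runs from 250 bases before to 50 bases after the start (RefSeq, GRCm38.p6, chr5:88527848-88528147, minus strand, 5′ to 3′), with capitals for matches to CAGNTG, an E-box form, searched on both strands.
Jchain promoter: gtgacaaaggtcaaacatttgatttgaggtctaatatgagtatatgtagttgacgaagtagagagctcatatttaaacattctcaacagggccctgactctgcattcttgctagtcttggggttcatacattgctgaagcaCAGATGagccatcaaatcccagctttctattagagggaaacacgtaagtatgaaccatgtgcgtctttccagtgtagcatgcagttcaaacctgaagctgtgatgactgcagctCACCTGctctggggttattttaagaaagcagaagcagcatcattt
The window held 2 such matches, as CAGNTG is found in 51.4% of the 32851 mouse promoters of this length. The octamer ATGCAAAT, an element known from immunoglobulin promoters and searched on both strands, had 0 matches in it and is found in 1.74% of those promoters.

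Signals are the authors' MAS5 values, on a linear scale that had been brought to a common level per array before deposit. Precision is limited by how many arrays there are. Over the tested probe sets, Spearman's rho for pairs of arrays lay between 0.887 and 0.979. The lung markers Sftpc and Scgb1a1, made by alveolar type 2 and club cells, were among the brightest transcripts of the arrays. 3 of the 42-week arrays stood apart in some markers of other tissues. LZ63 read 20112 for the skeletal muscle gene Acta1, 8750 for Tnnt3, 5391 for Myh1 and 894 for Mylpf, but 85.1 for Ckm. It read 19799 for the squamous keratin Krt4, but 34.7 for Krt13, 53.1 for Krt5 and 42.4 for Krt14. LZ22 and LZ24 read 6.6 and 45.3 for the heart muscle gene Myh6, which lay between 732 and 4335 on the other arrays. Tnni3, Tnnt2 and Myl7 were also lowest on LZ22 and LZ24, while Nppa read 267.6 and 177.2 there and 151.7 on LZ2. The median difference is given with and without LZ22, LZ24 and LZ63, as are the probe sets with 1 of them at an extreme that moved most.

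Antibody transcripts read higher on average at 42 weeks than at 24 to 26 weeks, in heavy, kappa, lambda and J chain probe sets, but no single probe set passed the test. Of the 80 members, 55 passed the filter on dim probe sets (mean signal of about 108 or more). Their median log2 difference, 42 weeks minus 24 to 26 weeks, was 0.79, and 52 of the 55 (94.5%) had a positive difference. Over all 7453 tested probe sets the median was -0.04 and 43.1% were positive. The filter used the mean over all 12 arrays, 7 of them at 42 weeks. A dim member could therefore pass through its 42-week signals, which can add to the positive differences. For example, 161486_f_at (Igha) and 96964_at (Igkv6-14 and Igkv4-53) had means of 96.3 and 99.7 at 24 to 26 weeks. None of the 55 passed 5% false discovery in limma (0 of 55; 0.0805% of all tested probe sets did). At an unadjusted p under 0.05 there were 14 of 55, all higher at 42 weeks, or 25.5%, against 14.7% of all tested probe sets in either direction and 5.04% in that direction. The signals of both time points overlapped in all 55, while 1.5% of all tested probe sets did not overlap. The 55 are not separate readings, so these counts are a description only. Pairs of them had a median r of 0.67 over the 12 arrays, and 37 carry a suffix for shared or not unique probes. In whole tissue, more antibody-making cells and more RNA per cell cannot be told apart.

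Arrays of the same time point differed widely in these transcripts. The within-time-point SD of the log2 signal had a median of 0.77 over the 55 members, against 0.25 over all tested probe sets, and all 55 lay above that median. 49 of the 55 were in the top 10% of all tested probe sets by this SD. At like brightness, between the lower and upper quartile of the members' mean signal, the median SD was 0.77 over 27 members and 0.24 over 3579 probe sets. Without LZ22, LZ24 and LZ63 the median difference was 0.91, with 54 of 56 positive. With LZ61 to LZ63 as the only 42-week arrays it was 0.30, and with LZ22 to LZ25 it was 1.17.

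**Figure D1:**
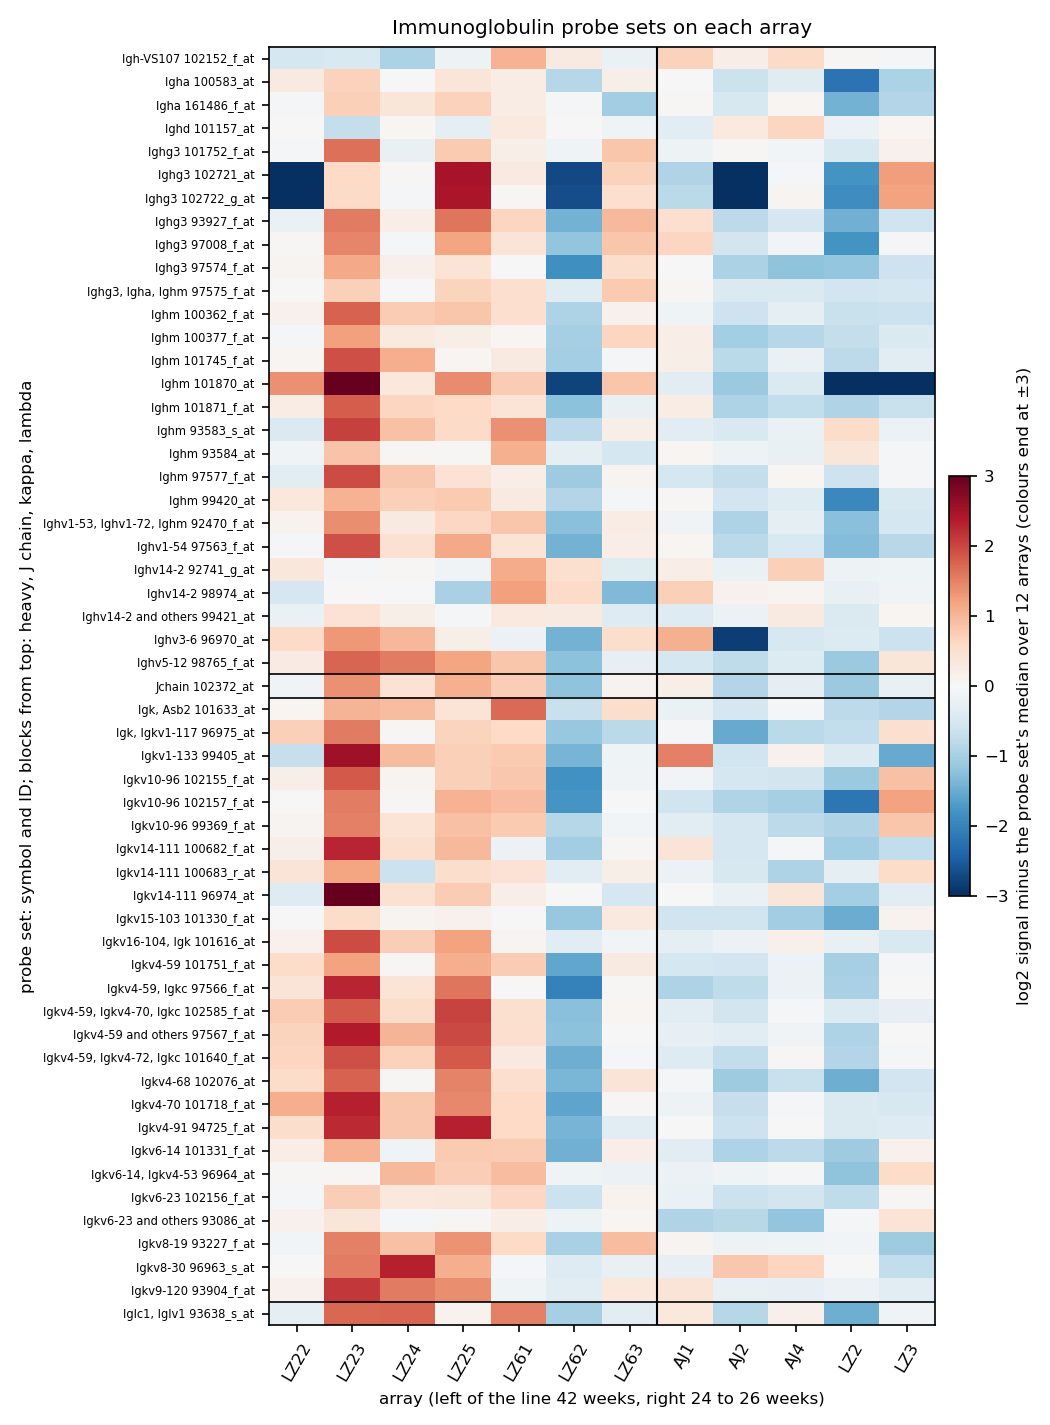
Heat map of the 55 immunoglobulin probe sets that passed the filter (rows, by chain) on 12 arrays (columns, 42 weeks left of the line), coloured by log2 signal minus the probe set's median over the 12 arrays. LZ23 was the highest array in 39 of the 55 rows, and LZ62 was the lowest in 19.

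Heavy chain transcripts with only an Ighm symbol, the constant region of IgM, had 9 probe sets that passed the filter, and all 9 had positive differences, with a median of 0.76. The widest was 101870_at, whose signal ran from 64.0 on LZ62 to 6672 on LZ23 with a median of 776 at 42 weeks, against 353 on AJ1, 203 on AJ2, 326 on AJ4, 43.8 on LZ2 and 36.6 on LZ3 at 24 to 26 weeks. LZ62 lay among the low arrays of the earlier time point, and the other 42-week arrays were above all 5 earlier ones. Its log2 difference was 2.59 (SE 1.05, 95% interval 0.25 to 4.92, limma adjusted p = 0.298), so that its interval spans changes from slight to very large. The readings on LZ2, LZ3 and LZ62 lay below the filter level of about 108, where MAS5 values are noisy. Over the alternatives run, the difference ranged from 1.36 to 4.29. The brightest Ighm probe set, 99420_at, ran from 3711 on LZ62 to 14167 on LZ23 with a median of 8469 at 42 weeks, against 7024 on AJ1, 4565 on AJ2, 5322 on AJ4, 1785 on LZ2 and 4955 on LZ3 at 24 to 26 weeks. The overlap lay in LZ62, which read within the earlier range, and in AJ1, which read above LZ63 and LZ62. The difference was 0.98 (SE 0.38, 95% interval 0.15 to 1.81, limma adjusted p = 0.276).

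In 2 Ighm probe sets the arrays had another order. The signal of 93583_s_at ran from 1813 on LZ62 to 12945 on LZ23 with a median of 4599 at 42 weeks, against 2499 on AJ1, 2260.3 on AJ2, 2688 on AJ4, 4529 on LZ2 and 2732 on LZ3 at 24 to 26 weeks, with LZ61 the next highest at 8045. For 93584_at it ran from 705 on LZ63 to 2137 on LZ61 with a median of 1041 at 42 weeks, against 1054 on AJ1, 909 on AJ2, 869.8 on AJ4, 1306 on LZ2 and 997 on LZ3 at 24 to 26 weeks. In both, LZ61 and LZ23 were the top arrays, which are also the arrays with the highest B cell marker medians. Their differences were 0.68 (SE 0.45, limma adjusted p = 0.515) and 0.16 (SE 0.25, limma adjusted p = 0.812), the second being the smallest of the 9. For 93584_at, lowest on LZ63, it was 0.42 without LZ22, LZ24 and LZ63. The remaining 5, 100362_f_at, 100377_f_at, 101745_f_at, 101871_f_at and 97577_f_at, had differences of 0.93, 0.76, 0.73, 0.92 and 0.67, with adjusted p of 0.269 to 0.452; each was highest on LZ23.

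Ighd, the constant region of IgD on naive B cells, had a difference of the opposite sign. Its single probe set, 101157_at, ran from 132 on LZ23 to 267 on LZ61 with a median of 215 at 42 weeks, against 175 on AJ1, 268 on AJ2, 338 on AJ4, 192 on LZ2 and 226 on LZ3 at 24 to 26 weeks. LZ23, the top array for most antibody transcripts, was the lowest for Ighd, and AJ4 was the highest. The log2 difference was -0.21 (SE 0.19, 95% interval -0.62 to 0.19, limma adjusted p = 0.627), with a mean of 205 ± 42.2 (SD, n = 7) at 42 weeks and 239.8 ± 65.4 (SD, n = 5) at 24 to 26 weeks. Over the 12 arrays, r of 101157_at with the B cell marker median was -0.05. For the tested probe sets with only an Ighm symbol it was 0.21 (100377_f_at) to 0.91 (93584_at). Whether this single probe set of low signal follows the IgD of B cells was not tested.

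Ighg3, the only IgG constant symbol among the members, had 6 probe sets past the filter, and all 6 differences were positive with a median of 0.73. 97574_f_at ran from 352 on LZ62 to 2751 on LZ23 with a median of 1394 at 42 weeks, against 1268 on AJ1, 649 on AJ2, 542 on AJ4, 567 on LZ2 and 823 on LZ3 at 24 to 26 weeks. LZ62 stood far below the other 42-week arrays, and AJ1 was the one earlier array that reached the range of those others. Its difference was 0.85 (SE 0.43, 95% interval -0.10 to 1.79, limma adjusted p = 0.394). The probe sets 102721_at and 102722_g_at, drawn from 1 target sequence, moved together (r = 0.993 over 12 arrays) in an order of their own. For 102721_at the signal ran from 122 on LZ22 to 6696 on LZ25 with a median of 1447 at 42 weeks, against 643 on AJ1, 108 on AJ2, 1185 on AJ4, 348 on LZ2 and 2866 on LZ3 at 24 to 26 weeks. LZ25 and LZ3 were the top arrays, 1 from each time point, and LZ22 and AJ2 read near the bottom, so the time points were fully mixed. The difference was 0.71 (SE 1.12, 95% interval -1.77 to 3.19, limma adjusted p = 0.816) for 102721_at and 0.51 (SE 1.19, 95% interval -2.12 to 3.14, limma adjusted p = 0.887) for 102722_g_at; without LZ22, LZ24 and LZ63 these were 1.15 and 1.07. The other 3, 93927_f_at, 97008_f_at and 101752_f_at, differed by 1.04, 0.76 and 0.54 (adjusted p = 0.39, 0.497 and 0.394 in limma).

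Igha, the constant region of IgA, had 2 probe sets past the filter. The brighter, 100583_at, is annotated to the same sequence record as 92741_g_at, which names the variable segment Ighv14-2. Which part of that record each of them reads was not tested. 100583_at ran from 3711 on LZ62 to 10864 on LZ23 with a median of 7823 at 42 weeks, against 6709 on AJ1, 4273 on AJ2, 5211 on AJ4, 1451 on LZ2 and 3462 on LZ3 at 24 to 26 weeks. 6 of the 7 later arrays read above every earlier array, LZ24 only just, while LZ62 read among the earlier ones and LZ2 read lowest of all 12. Its difference was 0.96 (SE 0.36, 95% interval 0.19 to 1.74, limma adjusted p = 0.264). The second, 161486_f_at, lay near the filter and ran from 63.1 on LZ63 to 214 on LZ23 with a median of 152 at 42 weeks, against 134 on AJ1, 93.0 on AJ2, 136 on AJ4, 48.3 on LZ2 and 70.5 on LZ3 at 24 to 26 weeks, a difference of 0.66 (SE 0.32, 95% interval -0.02 to 1.33, limma adjusted p = 0.356). LZ63 and LZ2 were its lowest arrays, and without LZ22, LZ24 and LZ63 the difference was 0.93. The profile of 100583_at across arrays was close to that of the Ighm probe set 99420_at (r = 0.947 over 12 arrays, which share the array-wide order of antibody signal).

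3 probe sets named several heavy chain constant genes. 97575_f_at (Ighg3, Igha and Ighm) had the smallest adjusted p of all members: its signal ran from 146 on LZ62 to 323 on LZ63 with a median of 267 at 42 weeks, against 193 on AJ1, 139 on AJ2, 139 on AJ4, 126 on LZ2 and 133 on LZ3 at 24 to 26 weeks. AJ1 alone of the earlier arrays reached into the later range. The mean was 246 ± 70.8 (SD, n = 7) at 42 weeks and 146 ± 26.7 (SD, n = 5) at 24 to 26 weeks, a difference of 0.71 (SE 0.21, 95% interval 0.27 to 1.15, limma adjusted p = 0.15). 92470_f_at (Ighv1-53, Ighv1-72 and Ighm) differed by 0.93 (SE 0.38, limma adjusted p = 0.288), and 99421_at (Ighv14-2, Ighg3, Igha and Ighm) by 0.21 (SE 0.16, limma adjusted p = 0.578).

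Heavy chain variable segments were split, and 4 of the 6 that passed the filter had positive differences. Ighv5-12 (98765_f_at), Ighv1-54 (97563_f_at) and Ighv3-6 (96970_at) had the largest, 1.07 (SE 0.50, limma adjusted p = 0.353), 1.05 (SE 0.48, limma adjusted p = 0.344) and 0.94 (SE 0.62, limma adjusted p = 0.509). Both Ighv14-2 probe sets and Igh-VS107 had the smallest: 0.12 for 92741_g_at, -0.26 for 98974_at and -0.43 for Igh-VS107 (102152_f_at), with adjusted p of 0.85, 0.787 and 0.494 in limma. The signal of Igh-VS107 ran from 164 on LZ24 to 650.1 on LZ61 with a median of 274 at 42 weeks, against 506 on AJ1, 363 on AJ2, 466 on AJ4, 323 on LZ2 and 306 on LZ3 at 24 to 26 weeks. Without LZ22, LZ24 and LZ63 these 3 had 0.28, 0.08 and -0.11. LZ61 was the top array of these 3 probe sets, and LZ23 was in the middle or low part of their order.

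**Figure D2:**
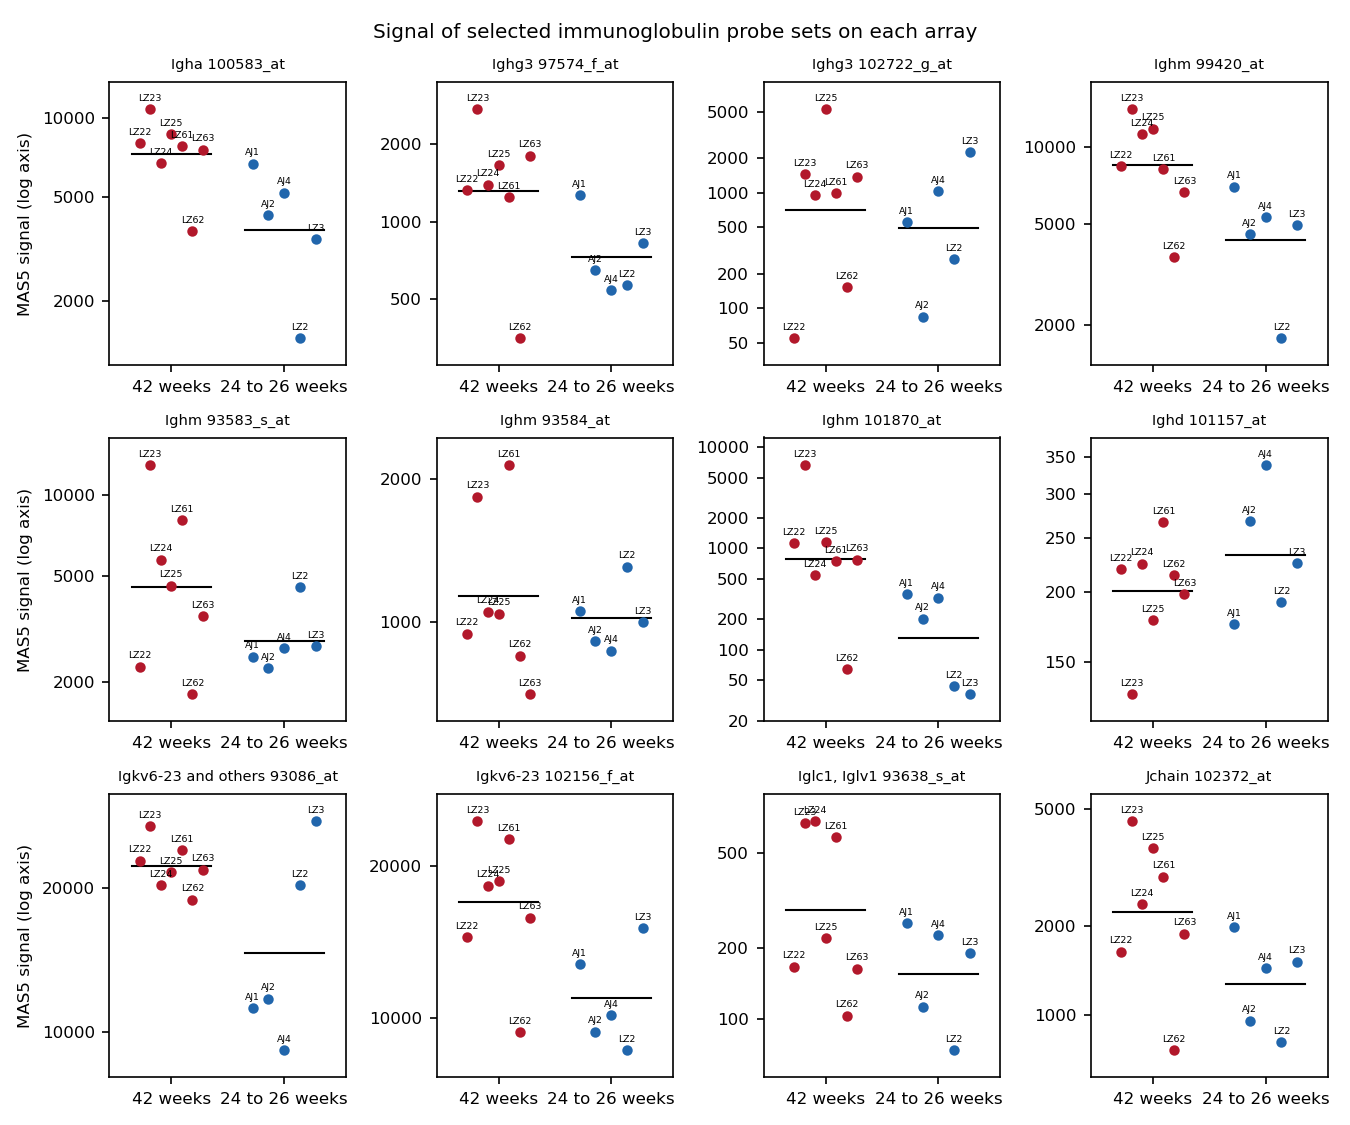
MAS5 signal (log axis) of 12 immunoglobulin probe sets, each dot 1 labelled array, 42 weeks left and 24 to 26 weeks right, with a line at the geometric mean of the time point. Ighm 101870_at spans 36.6 to 6672, Ighd 101157_at spans 132 to 338, and in the kappa probe set 93086_at the 3 AJ arrays lie below all others.

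In kappa light chains all 26 probe sets past the filter had positive differences, from 0.51 to 1.24 with a median of 0.80. The 10 that name an Igkv4 segment had a median of 0.96. Igkv4-68 (102076_at) had the largest of the kappa differences: its signal ran from 359 on LZ62 to 3206 on LZ23 with a median of 1326 at 42 weeks, against 914 on AJ1, 445 on AJ2, 591 on AJ4, 338 on LZ2 and 628 on LZ3 at 24 to 26 weeks. LZ62 was the one later array within the earlier range, close to its bottom. The difference was 1.24 (SE 0.48, 95% interval 0.17 to 2.30, limma adjusted p = 0.28). It was followed among the variable or locus probe sets by 101633_at (Igk and Asb2) with 1.05 (SE 0.33, limma adjusted p = 0.201) and Igkv4-70 (101718_f_at) with 1.03 (SE 0.55, limma adjusted p = 0.41). The smallest were those of Igkv10-96 (102155_f_at), Igkv14-111 (100683_r_at) and Igkv8-30 (96963_s_at), 0.51, 0.52 and 0.52 (adjusted p = 0.709, 0.435 and 0.662 in limma). With LZ61 to LZ63 as the only later arrays, Igkv10-96 and Igkv8-30 had -0.10 and -0.31.

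5 kappa probe sets name the constant gene Igkc, each with variable segments. In 4 of them the other symbols are Igkv4 segments alone, and of these 97567_f_at ran from 877 on LZ62 to 10800.5 on LZ23 with a median of 3264 at 42 weeks, against 1734 on AJ1, 1631 on AJ2, 1909 on AJ4, 1092 on LZ2 and 2068 on LZ3 at 24 to 26 weeks. LZ23 and LZ25 were far above the rest and LZ62 was below every earlier array. The differences of these 4, 97567_f_at, 102585_f_at, 101640_f_at and 97566_f_at, were 1.08, 0.97, 0.96 and 0.95 (adjusted p = 0.394, 0.392, 0.424 and 0.502 in limma). With LZ61 to LZ63 as the only later arrays, 101640_f_at and 97566_f_at had -0.01 and -0.09. The fifth, 93086_at (Igkv6-23, Igkv4-53, Igkv8-30, Igkj1 and Igkc), was the brightest member and the 10th brightest tested probe set. Its signal ran from 18879 on LZ62 to 26929.8 on LZ23 with a median of 21837 at 42 weeks, against 11181 on AJ1, 11712 on AJ2, 9155 on AJ4, 20237 on LZ2 and 27594 on LZ3 at 24 to 26 weeks. The 3 AJ arrays were low and every LZ array, of either time point, was high. Its difference between the time points was 0.60 (SE 0.23, 95% interval 0.11 to 1.09, limma adjusted p = 0.264), 1.06 against the AJ arrays alone (adjusted p = 0.000563) and -0.09 when the AJ or LZ prefix was a block (adjusted p = 0.963). Igkv6-23 (102156_f_at), the second brightest member, ran from 9373 on LZ62 to 24609 on LZ23 with a median of 18318 at 42 weeks, against 12809 on AJ1, 9408 on AJ2, 10139 on AJ4, 8655 on LZ2 and 15071 on LZ3 at 24 to 26 weeks. LZ62 again read like the low earlier arrays, and the difference was 0.63 (SE 0.21, 95% interval 0.17 to 1.09, limma adjusted p = 0.224).

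Lambda was measured by 1 probe set past the filter, 93638_s_at (Iglc1 and Iglv1). Its signal ran from 103 on LZ62 to 685 on LZ24 with a median of 219 at 42 weeks, against 253 on AJ1, 112 on AJ2, 226 on AJ4, 73.8 on LZ2 and 189.5 on LZ3 at 24 to 26 weeks. LZ24, LZ23 and LZ61 stood well above all other arrays, and the remaining 4 later arrays lay within the earlier range. Without LZ22, LZ24 and LZ63 the difference was 0.98, and over all arrays it was 0.89 (SE 0.55, 95% interval -0.31 to 2.09, limma adjusted p = 0.479). Jchain (102372_at) ran from 763 on LZ62 to 4544 on LZ23 with a median of 2378 at 42 weeks, against 1986 on AJ1, 958 on AJ2, 1440.0 on AJ4, 812 on LZ2 and 1516 on LZ3 at 24 to 26 weeks. AJ1 lay among the later arrays and LZ62 lay below every earlier one. The difference was 0.81 (SE 0.41, 95% interval -0.09 to 1.71, limma adjusted p = 0.394), with means of 2547 ± 1283 (SD, n = 7) at 42 weeks and 1343 ± 470.1 (SD, n = 5) at 24 to 26 weeks.

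Isotypes and light chains were compared as differences within each array, between the probe sets of 2 symbols with the highest mean log2 signal, in 7 pairs with an exact two-sided permutation test over the arrays (792 splits). The difference of Ighd from Ighm (101157_at minus 99420_at) was lower at 42 weeks by -1.19 on the log2 scale (exact p = 0.0354, adjusted p = 0.124). That of Igha from Ighd (100583_at minus 101157_at) was higher by 1.18 (exact p = 0.0290, adjusted p = 0.124), and that of Ighg3 from Ighd by 1.06 (exact p = 0.0997, adjusted p = 0.233). None of the 7 passed after adjustment. In the pairs with Ighd most of the shift lay in the other symbol, as Ighd itself differed by -0.21. Igha minus Ighm, Ighg3 minus Ighm and Igha minus Ighg3 shifted by -0.02, -0.13 and 0.12 (exact p = 0.910, 0.678 and 0.750). Kappa against lambda (93086_at minus 93638_s_at) shifted by -0.29 (exact p = 0.635), with an SD between arrays of 1.05 at 42 weeks and 1.17 at 24 to 26 weeks. The choice of probe set turned that sign: with the other 4 Igkc probe sets in place of 93086_at, which read low on the AJ arrays, the shift was 0.062 to 0.19 (exact p = 0.708 to 0.915). With 102721_at, the Ighg3 probe set of highest arithmetic mean signal, in place of 97574_f_at, the shift was -0.27 for Ighg3 minus Ighm, 0.25 for Igha minus Ighg3 and 0.92 for Ighg3 minus Ighd (exact p = 0.794, 0.822 and 0.449). These 7 further comparisons were added after the values were seen. No other Ighm probe set was put in place of 99420_at, so the pairs with Ighm hold for that probe set only. The other tested probe sets with only an Ighm symbol had r with 99420_at from 0.248 (93584_at) and 0.495 (93583_s_at) up to 0.864 (101871_f_at). Between the time points 93583_s_at and 93584_at differed by 0.68 and 0.16.

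**Figure D3:**
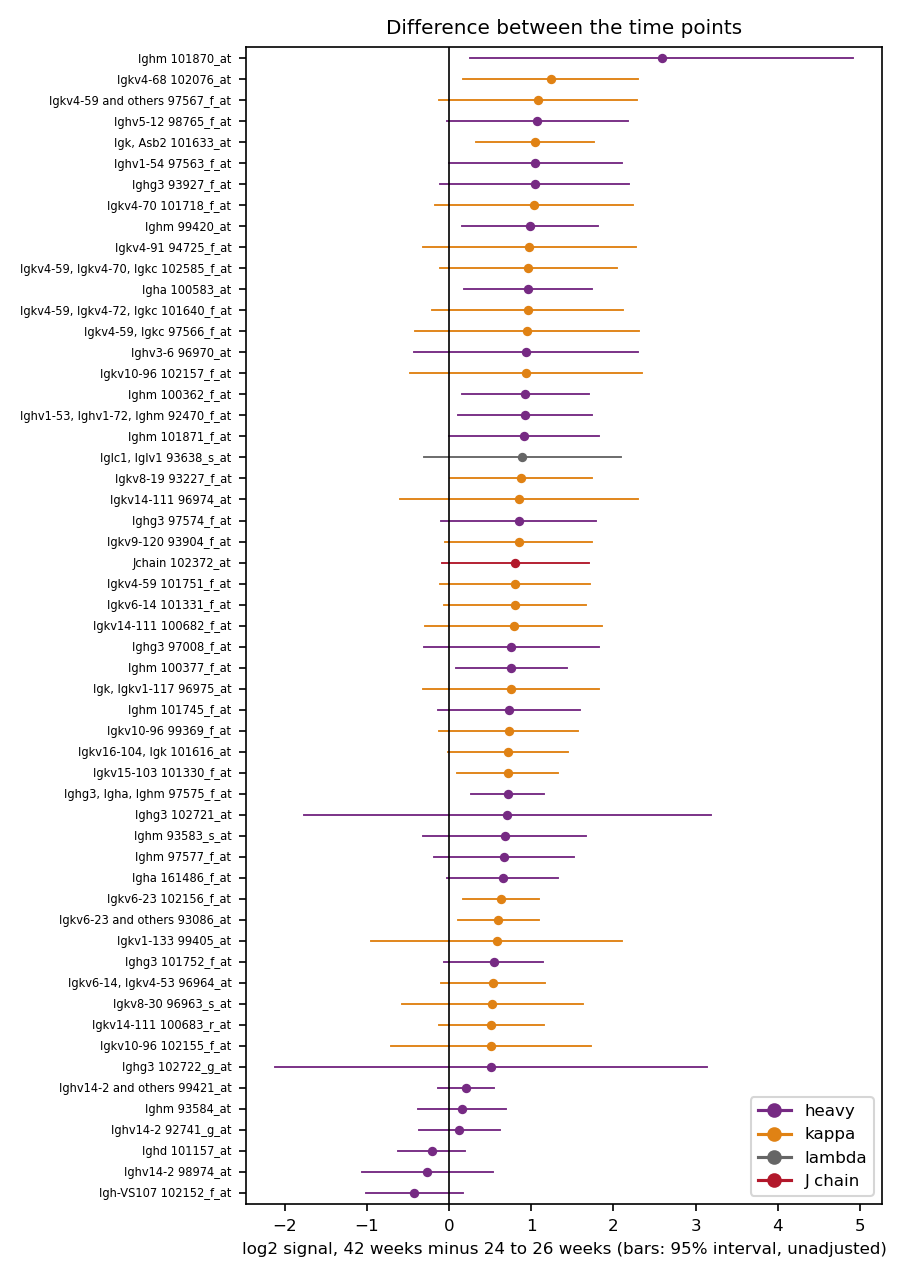
Log2 difference, 42 weeks minus 24 to 26 weeks, of the 55 immunoglobulin probe sets with unadjusted 95% intervals from limma, ordered by size and coloured by chain. 52 of 55 points lie right of 0, and Ighm 101870_at is the farthest at 2.59.

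The 25 members below the filter had signals from 1.1 to 248.6 and were not tested; 15 of them had positive differences, with a median of 0.10. They include both Igll1 probe sets, for the surrogate light chain of precursor B cells, with signals of 81.6 to 199.1 (99428_at) and 20.8 to 103.8 (99429_at) over the 12 arrays, and the only probe set for Iglc1 alone (93639_r_at), with 37.0 to 159.4. Just above the filter lay 96964_at (Igkv6-14 and Igkv4-53), 161486_f_at (Igha) and 101752_f_at (Ighg3), with geometric mean signals of 115, 117 and 134. Just below it lay 97570_at (Igkv7-33), 99428_at (Igll1) and 93639_r_at (Iglc1), with 107, 105 and 101.

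Array by array, antibody transcripts stood high or low together. The median of the 55 probe sets, each relative to its own median over the 12 arrays, was 0.07 (log2) on LZ22, 1.52 on LZ23, 0.36 on LZ24, 0.76 on LZ25, 0.50 on LZ61, -1.04 on LZ62 and 0.07 on LZ63. The earlier arrays had -0.10 on AJ1, -0.60 on AJ2, -0.20 on AJ4, -0.88 on LZ2 and -0.19 on LZ3. By this median 6 of the 7 later arrays were above every earlier array, and LZ62 was below all of them. LZ23 exceeded LZ62, of the same time point, in 51 of 55 probe sets, with a median fold of 6.45. LZ23 was the highest array in 39 of 55, while LZ62 was the lowest in 19 and LZ2 in 17. 15 of the 55 differed at least 10-fold between their highest and lowest array.

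Pairs of members had a median Pearson r of 0.67 over the 12 arrays, and a member's r with the median of the others had a median of 0.85, with 34 of 55 at 0.8 or more. Many of these probe sets share target sequence, and all share the arrays' scaling, so the values describe likeness only. Ighv1-54 (0.975) and Jchain (0.972) followed the block most closely. Only 3 had an r below 0: Ighd (-0.46), Igh-VS107 (-0.30) and Ighv14-2 98974_at (-0.16). Heavy and kappa medians kept the same extremes, with 1.22 and 1.67 on LZ23 and -0.99 and -1.14 on LZ62.

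Markers of the cells that make antibody had another order of arrays, related in part. The B cell median had r = 0.454 with the antibody median over the 12 arrays, and the plasma cell median r = -0.034, as a description of arrays that share their scaling. Of 16 tested B cell genes 13 were highest on LZ61 and 0 on LZ23. Their median was 0.85 on LZ61, 0.40 on LZ23, -0.11 on LZ62 and -0.63 on LZ63, and between -0.20 and 0.02 on the earlier arrays. The signal of Cd79a, a subunit of the B cell receptor, ran from 518 on LZ63 to 2279.8 on LZ61 with a median of 949.7 at 42 weeks, against 672 on AJ1, 732 on AJ2, 753 on AJ4, 892 on LZ2 and 869 on LZ3 at 24 to 26 weeks. The 14 tested plasma cell genes had medians within -0.16 to 0.09 at 42 weeks and -0.04 to 0.10 at 24 to 26 weeks. Many of those, such as Xbp1, serve secretion in other lung cells too. Their summed signal was 11436 to 12637 at 42 weeks and 12230.4 to 13921 at 24 to 26 weeks, and that of the B cell genes 10020.5 to 17154 and 10134 to 11607. T cell genes also read high on some later arrays, with a median over 7 tested genes of 0.49 on LZ24, 0.34 on LZ23 and 0.20 on LZ61, and of -0.44 on LZ63. Between the time points 0 of the 7 passed in limma and 6 were positive, with a median of 0.10. Their summed signal was 1415 to 2244 at 42 weeks and 1358 to 1746 at 24 to 26 weeks. The T cell receptor subunit Cd3g differed by 0.89 (limma adjusted p = 0.181) and had r = 0.780 with the antibody median. The surface marker Thy1 differed by 0.56 (limma adjusted p = 0.145) with r = 0.566. These 2 genes were picked with their values in view. The other tested T cell genes differed by -0.20 (Zap70) to 0.40 (Cd3e), with r of 0.098 (Cd8b1) to 0.509 (Cd3e). The part of these cells in the antibody differences was not tested.

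**Figure D4:**
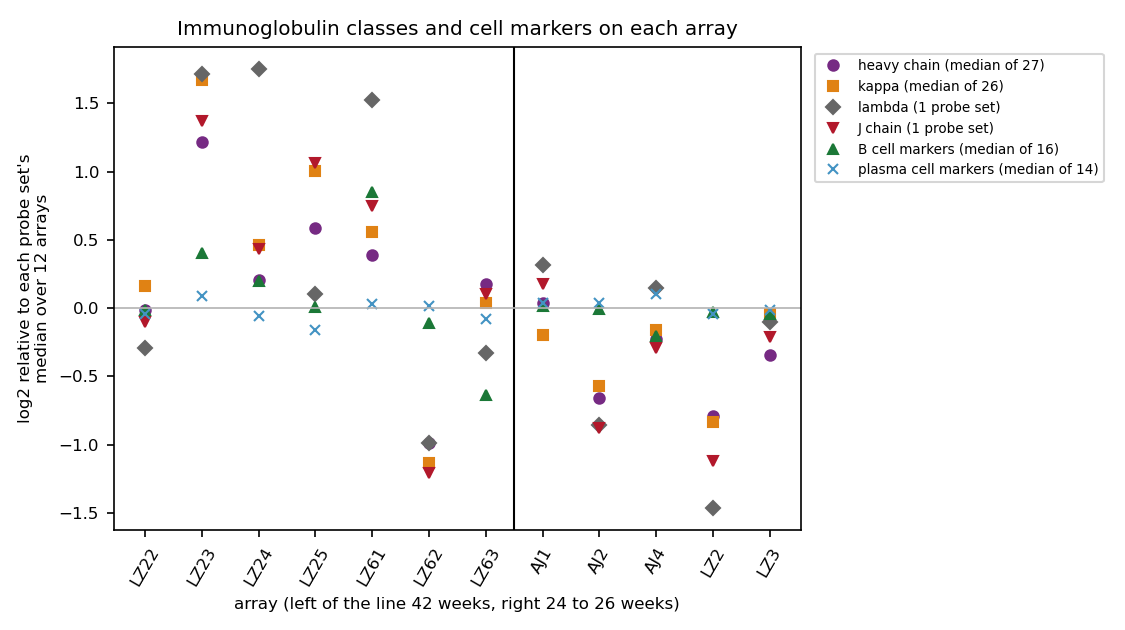
Median log2 signal, relative to each probe set's median over 12 arrays, of heavy and kappa chain probe sets and of B cell and plasma cell markers, with the single lambda and J chain probe sets, on each array (42 weeks left of the line). Antibody chains reach 1.22 to 1.72 on LZ23, where B cell markers are at 0.40, and lie at -0.98 or lower on LZ62.

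No gene of the B cell, plasma cell, antibody receptor or homing lists passed the test between the time points: 0 of 16, 0 of 14, 0 of 4 and 0 of 11 tested genes, in limma. The B cell list had 13 of 16 positive differences with a median of 0.19, and the plasma cell list 4 of 14 with -0.09. Of the B cell genes with the smallest p, the log2 differences were 0.48 for Ebf1 and 0.39 for Blnk, which act in B cell development and signalling, and 0.38 for Cd79a and 0.24 for Cd37 (adjusted p from 0.200 to 0.639). Of the plasma cell list they were -0.27 for Xbp1, 0.26 for Tnfrsf17, -0.18 for Sec11c and -0.16 for Sel1l (0.291 to 0.583). Among antibody receptors, they were -0.37 for Trim21, 0.34 for Fcgr2b, 0.29 for Pigr and 0.06 for Fcgr1 (0.269 to 0.926). Among homing and survival genes, they were 0.62 for Ltb, 0.45 for Lta, 0.25 for Tgfb1 and -0.36 for Cxcr4 (0.266 to 0.492).

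Of 7398 other tested probe sets, the 10 most like the antibody median had r of 0.904 to 0.970 over the 12 arrays. 8 of those are unnamed in the annotation and 9 have the _f suffix of probes shared within a gene family. Members were taken by symbol, so an unnamed probe set that reads an antibody transcript would be counted among these others. Among named genes the most alike were Adck1 (r = 0.936), Ctsk (0.904), Nans (0.859), Idh2 (0.855), Chrne (0.849), Twf2 (0.838), Ccl8 (0.838), Lrp10 (0.834), Trgv4 (0.834) and Ccn3 (0.834). The probe sets of Adck1 (101720_f_at) and Chrne (92967_r_at) carry suffixes of probes that are shared or not unique. Whether they read the named gene was not tested. Adck1 had 3 probe sets high in this order, of which the most alike is given. The signal of Adck1 (101720_f_at) ran from 198 on LZ62 to 1323 on LZ23 with a median of 801 at 42 weeks, against 290.5 on AJ1, 204 on AJ2, 359.8 on AJ4, 221 on LZ2 and 275 on LZ3 at 24 to 26 weeks. That of Ctsk, a cathepsin of bone-resorbing cells and macrophages, ran from 474 on LZ62 to 1092 on LZ23 with a median of 696 at 42 weeks, against 507 on AJ1, 496 on AJ2, 522 on AJ4, 541 on LZ2 and 547 on LZ3 at 24 to 26 weeks. In both LZ23 was the highest array and LZ62 the lowest.

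Within 42 weeks, LZ61 to LZ63 read lower than LZ22 to LZ25 in 51 of 55 probe sets, with a median log2 difference of -0.81; over all tested probe sets the median was -0.01 and 47.9% were positive. 0 of 55 passed 5% false discovery in limma (1.5% of all did). At an unadjusted p under 0.05 there were 17, 16 of them lower, against 19.8% of all tested probe sets, and 11.2% lower. The 2 sets of arrays did not overlap in 9 of 55 (16.4%), against 16% of all tested probe sets, which is near the background; all 9 were lower, against 9.53% of all. By chain, these were 8 of 26 kappa probe sets, 5 of them among the 10 that name an Igkv4 segment, and Ighm 99420_at. Many of these probe sets share target sequence and the count is near the background, so the split is a description only. The signal of 97567_f_at was 2919.6 on LZ61, 877 on LZ62 and 2053 on LZ63, against 3264 on LZ22, 10800.5 on LZ23, 4178 on LZ24 and 8141 on LZ25, a difference of -1.76 (SE 0.51, 95% interval -2.90 to -0.62, limma adjusted p = 0.109). Ighd, Igh-VS107 and both Ighv14-2 probe sets were the 4 with positive differences, the largest being Igh-VS107 with 0.88 (SE 0.26, limma adjusted p = 0.0935). The median was -0.22 without LZ62, -0.56 without LZ23, -0.03 without both and -1.52 without LZ22, LZ24 and LZ63.

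At 24 to 26 weeks 1 member passed the test between the AJ and the LZ arrays. The kappa probe set 93086_at read 11181 on AJ1, 11712 on AJ2 and 9155 on AJ4, against 20237 on LZ2 and 27594 on LZ3. All AJ arrays were below both LZ arrays, with means of 10683 ± 1349.5 (SD, n = 3) and 23916 ± 5202 (SD, n = 2). It fell on the AJ arrays, with a log2 difference of -1.15 (SE 0.16, 95% interval -1.51 to -0.80, limma adjusted p = 0.00821), 0.45 times the LZ level, and this was the 1 of 55 that passed (2.5% of all tested probe sets did, and 1.37% were lower). Without LZ3, which leaves LZ2 as the only LZ array and 0 calls among all tested probe sets, the difference was -0.93 (adjusted p = 0.114). This probe set lies at the top of the scale, where the arrays themselves differed: the highest signal on an array was 19066 to 21497 on the AJ arrays and 30665 to 39943 on LZ2 and LZ3. Of 99 tested probe sets with a mean signal over 10000, 96 were lower on AJ, with a median of -0.43, and 31 fell past the test, among them Sftpc (-0.85) and Scgb1a1 (-0.77). The part of this in the kappa difference was not tested.

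Most antibody transcripts differed the other way, with 38 of 55 higher on AJ and a median log2 difference of 0.23, which was -0.02 without LZ2; 55.4% of all tested probe sets were higher. Non-overlap was seen in 13 of 55 (23.6%), against 41.1% of all. Igha (100583_at) read 6709 on AJ1, 4273 on AJ2 and 5211 on AJ4, against 1451 on LZ2 and 3462 on LZ3, so that AJ was higher throughout. The difference was 1.24 (SE 0.41, limma adjusted p = 0.146). That of Ighm 101870_at, which read 43.8 on LZ2 and 36.6 on LZ3, below the filter level, was 2.84 (SE 1.24, limma adjusted p = 0.28). For Igkv6-23 (102156_f_at), the other very bright kappa probe set, it was -0.10 (SE 0.36, 95% interval -0.90 to 0.71, limma adjusted p = 0.931), and 0.28 after quantile normalization.

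**Figure D5:**
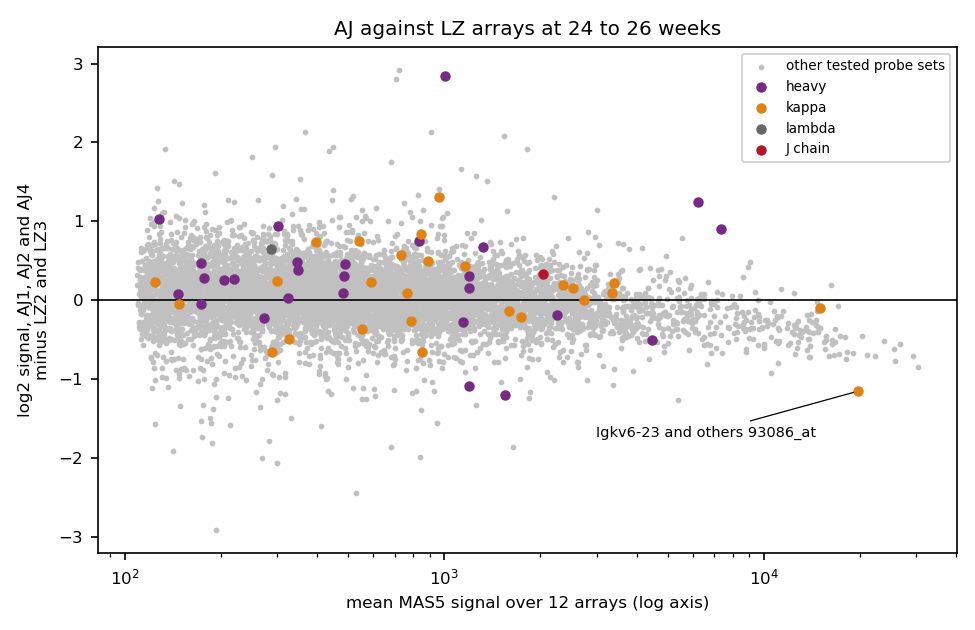
Log2 difference, AJ1, AJ2 and AJ4 minus LZ2 and LZ3, against mean MAS5 signal over 12 arrays (log axis) for 7453 probe sets, with immunoglobulins coloured by chain. The kappa probe set 93086_at lies at -1.15, at the bright end where 96 of 99 probe sets over 10000 lie below 0.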

How the data were processed

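Total RNA of 12 lung samples was measured on Affymetrix MG_U74Av2 arrays, biotin-labelled per the labels' protocols. The deposited table holds linear intensity, computed by the authors with MAS5 per the submitters' processing notes; its version, scaling target and build were not given in the sources used here. The trimmed mean (2% off each end) was 497 to 498 on every array, so arrays already shared a level, at which a shift of most transcripts together would not show. No further scaling was applied. The run records, which hold no measurement, gave the run day. MAS5 subtracts mismatch signal, which makes low values noisy.

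66 control probe sets were removed of 12488. Symbols came from GEO's platform annotation, with 10833 probe sets holding 1 symbol, 396 several and 1193 none. Signals were put on a log2 scale without a pseudocount, as 0 of them were at or below 0, and probe sets with mean log2 under the 40th percentile were left out, which left 7453. limma 3.58.1 in R 4.3.3 (lmFit, eBayes with trend and robust, statmod 1.5.0) compared the time points over all 12 arrays, and the title ranges in 1 fit with 4 groups, with two-sided p-values adjusted by Benjamini-Hochberg across the 7453 at 5% false discovery. Adjusted p in the text are from these fits unless an exact test is named. The fit was tested on simulated data. Members, lists and comparisons were chosen with earlier results of these data known.

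Named with values were all constant region probe sets, the J chain, Igll1, members past a test, the 3 largest and 3 smallest differences among variable segments per chain, members next to the filter, up to 4 genes of smallest p per list, and the 10 named genes most like the antibody median. The lists comprised B cell, plasma cell, antibody receptor and homing genes and markers of other tissues. The precursor B cell, germinal centre and fat lists had only 2, 2 and 1 tested genes, of which 0 passed between the time points. Alternatives were other normalizations, filters, a pseudocount of 28.7, other variance models, array weights, title prefix and run day as blocks, subsets of arrays and members, each array left out, and an exact permutation test.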

Additional observations from a re-analysis of the deposited data

Results flagged for a closer look

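Of 88 sets of arrays examined, each a member at 1 time point, 4 held an array far from the others. Chance gives about 1 in 20, so this count is near that of chance and the 4 are listed as a description only. AJ1 read 493.8 for Ighm (101871_f_at) at 24 to 26 weeks, with LZ3 next at 267.6. AJ1 also read 192.9 for 97575_f_at (Ighg3, Igha and Ighm), with AJ2 next at 139. LZ2 read 4528.6 for Ighm (93583_s_at), with LZ3 next at 2732. LZ62 read 352 for Ighg3 (97574_f_at) at 42 weeks, with LZ61 next at 1246.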

How the results depend on the processing

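Between the time points, the median difference of the antibody probe sets stayed positive under all alternatives run, from 0.30 to 1.17. Their calls changed in 3: 4 were called with array weights, 1 with LZ22 to LZ25 as the only later arrays (Igkv4-70) and 1 with AJ1, AJ2 and AJ4 as the only earlier arrays (93086_at); with each array left out in turn 0 were called. Calls over all probe sets, 6 as reported, numbered 17 after quantile normalization, 550 with array weights and 1 with run day as a random block. They were 14 with LZ22 to LZ25 only, 12 with LZ61 to LZ63 only, 443 with AJ only and 1 without LZ22, LZ24 and LZ63. Without LZ23 and LZ62, a setting chosen after seeing the data, there were 3. The exact permutation test gave 0 calls, and the smallest adjusted p it reached was 0.162. In limma 1097 had an unadjusted p under 0.05. With 1 array left out there were 4 to 38 calls. These were 38 and 30 where LZ2 or LZ3 was dropped, and 16 and 15 where LZ62 or LZ63 was. Signs of small differences turned. With the title prefix as a block they were -0.0081 for 93584_at, -0.0092 for 102721_at, -0.14 for 102722_g_at, -0.092 for 93086_at and 0.018 for 98974_at. With LZ61 to LZ63 only they were -0.0071 for 101640_f_at, -0.094 for 97566_f_at, 0.078 for 102152_f_at, 0.042 for 98974_at, -0.10 for 102155_f_at and -0.31 for 96963_s_at. For 92741_g_at they were -0.028 with LZ22 to LZ25 only and -0.031 with AJ only, and for 98974_at 0.081 without LZ22, LZ24 and LZ63. With 1 array left out, 102722_g_at ranged from -0.13 (without AJ2) to 1.12 and 92741_g_at from -0.028 (without LZ61) to 0.28.

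For LZ61 to LZ63 minus LZ22 to LZ25, 1 antibody probe set was called with array weights (102152_f_at) and 1 without LZ22, LZ24 and LZ63 (93904_f_at). Calls over all probe sets, 112 as reported, numbered 292 with arrays set to equal medians, 45 with no filter, 23 without trend and robust, 3 without LZ22, LZ24 and LZ63, 2 without LZ23 and LZ62, and 0 to 86 with 1 array left out (0 without AJ2, LZ22, LZ23 or LZ25). The antibody median was -1.52 without LZ22, LZ24 and LZ63 and -0.026 without LZ23 and LZ62, and ranged from -1.20 (without LZ61) to -0.22 (without LZ62) with 1 array left out. Without LZ23 and LZ62, the differences turned to 0.15 for 102156_f_at and 0.090 for 93086_at. With 1 array left out, these ranged from -0.62 to 0.019 and from -0.16 to 0.0083, each highest without LZ62.

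For AJ minus LZ2 and LZ3, the 1 antibody call went to 0 without LZ3, which leaves 1 LZ array assumed to vary like the others, and to 0 with probe sets of 1 gene only, which leaves 93086_at out. Calls over all probe sets, 186 as reported, numbered 121 with no filter, 776 with array weights, 380 without LZ22, LZ24 and LZ63, and 0 (without LZ3) to 373 (without LZ63) with 1 array left out, with 54 without AJ2, 19 without AJ4 and 35 without LZ2. The antibody median ranged from -0.021 (without LZ2) to 0.44, Jchain from -0.12 (without LZ2) to 0.79 and 102156_f_at from -0.50 to 0.30 (without LZ3), and the last was 0.28 after quantile normalization. The cause of these changes was not tested where the setting does not show it. No paired analysis was possible because the groups share no replicate numbers. Signals near the filter are dim and limit what can be seen in the 25 members below it.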
